A study of Mus musculus with 10 samples.

Results

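The 10 genes described here encode subunits of heterotrimeric G proteins: the gamma subunits Gng3 and Gng2, the beta subunits Gnb3, Gnb1, Gnb2 and Gnb4, and the alpha subunits Gnai2, Gnai3, Gna13 and Gnaq. They are 10 of 19937 genes measured on Affymetrix whole-transcript arrays. Each gene was read from its probe set with a single gene symbol in the platform annotation, and each of the 10 had 1 such probe set. Gng3 and Gnb3 were chosen because their levels with a Pax5 vector differed from those with empty vector, so for these 2 genes the values against empty vector are a description and no test is drawn from them. The other 8 were listed to show how the rest of the family behaved, with earlier results of these arrays known. A further 22 measured subunit genes, listed by gene family alone, were set beside them.

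The arrays held RNA from J558, a myeloma line of the mouse that resembles plasma cells. Its cells had been infected with a retroviral MSCV vector that carried Pax5 G183S (4 cultures), wild-type Pax5 (3 cultures) or no insert, the empty vector (3 cultures). Every vector, the empty one included, also carried puromycin resistance and GFP, and all cultures were selected in puromycin for 5 to 7 days and sorted for GFP and IgM. Pax5 is a DNA-binding factor needed for B-lineage commitment and normally absent from plasma cells, and in the G183S protein a glycine of the octapeptide motif is changed to serine. The study's model is 1 cell line with Pax5 expressed from a viral vector, and the series title asks about inherited PAX5 changes in leukaemia.

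Heterotrimeric G proteins carry signals from seven-transmembrane receptors to enzymes and channels. An activated receptor makes the alpha subunit exchange GDP for GTP, and alpha and the tightly joined beta-gamma pair then act on separate effectors until the alpha subunit hydrolyses its GTP, a step that RGS proteins accelerate. In B-lineage cells, chemokine receptors act mainly through Gi proteins, while receptors coupled to the G12 family, Gna13 among them, restrain migration.

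The median of an array was 6.81 to 6.94 log2 units. Pax5 read 9.38 to 10.36 log2 units in G183S arrays and 10.05 to 10.67 in wild-type arrays, against 6.84 to 7.10 in empty-vector arrays, so all 7 arrays with a Pax5 vector lay above the 3 without. This probe set checks for Pax5 RNA, and whether it separates mutant from wild-type RNA was not tested. All 6 plasma-cell markers examined read above 7.23 log2 units, the median of all gene means, in at least 1 array, and the mean of these markers was 10.70 to 11.85 in G183S arrays, 11.33 to 11.90 in wild-type arrays and 11.69 to 11.92 in empty-vector arrays. Of these markers, Tnfrsf17 and Sdc1, both surface proteins of plasma cells, lay lowest relative to empty vector with G183S. Tnfrsf17 read 10.25, 7.72, 8.96 and 9.04 with G183S, 9.88, 11.12 and 9.89 with wild type, and 10.83, 11.04 and 11.36 with empty vector, a log2 difference of -2.08 with G183S and -0.78 with wild type (limma adjusted p = 0.119 and 0.540). Sdc1 differed by -1.14 with G183S and -0.64 with wild type (limma adjusted p = 0.119 and 0.339). For both genes the G183S arrays did not overlap with the empty-vector arrays, and for Sdc1 the wild-type arrays did not either. Groups did not overlap in 2 of 6 markers with G183S (11.6% of all genes) and in 3 of 6 with wild type (24.0%), both against empty vector. With G183S both were lower, while with wild type Sdc1 and Xbp1 were lower and Irf4 was higher. On average Irf4 and Prdm1 lay higher with wild type, by 0.58 and 0.36 (limma adjusted p = 0.323 and 0.580), and the other markers lay lower. The part of these markers in the results below was not tested. Probe sets below 7.23 are called dim here. In bulk RNA of this kind, fewer cells expressing a gene and less RNA per cell cannot be told apart. All values below are log2 expression, and fold changes are log2 differences with the standard error (SE) of the limma fit.

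Gng3, a gamma subunit gene known mainly from neurons, was higher with either Pax5 vector than with empty vector, and most so with wild-type Pax5. It read 7.98, 7.72, 7.10 and 7.93 log2 units with G183S, 9.67, 8.31 and 8.92 with wild type, and 6.33, 6.58 and 6.51 with empty vector. The 3 groups did not overlap: every wild-type array lay above every G183S array, and every G183S array above every empty-vector array. Over all genes 49 (0.246%) had this order, which includes the differences that Gng3 was chosen for. The log2 fold change was 2.49 ± 0.32 SE with wild type and 1.21 ± 0.30 SE with G183S, both against empty vector, which is 5.62-fold and 2.31-fold. These 2 differences share the empty-vector arrays. In the empty-vector arrays and in G183S replicate 3 Gng3 was dim, and since background signal was not used here, how far it limits the size of these changes is not known.

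Gng3 averaged 7.68 ± 0.41 log2 units with G183S (SD, n = 4) and 8.97 ± 0.68 with wild type (SD, n = 3). The log2 difference between them was -1.28 ± 0.30 SE. It is given without a test, since the levels in the same arrays served to choose the gene. It was -0.80 with array weights and -1.38 without G183S replicate 1. Over all genes limma called 0 of 19937 (0%) between G183S and wild type, where 1891 genes had an unadjusted p under 0.05 and a linear model without moderation called 1.

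**Figure D1:**
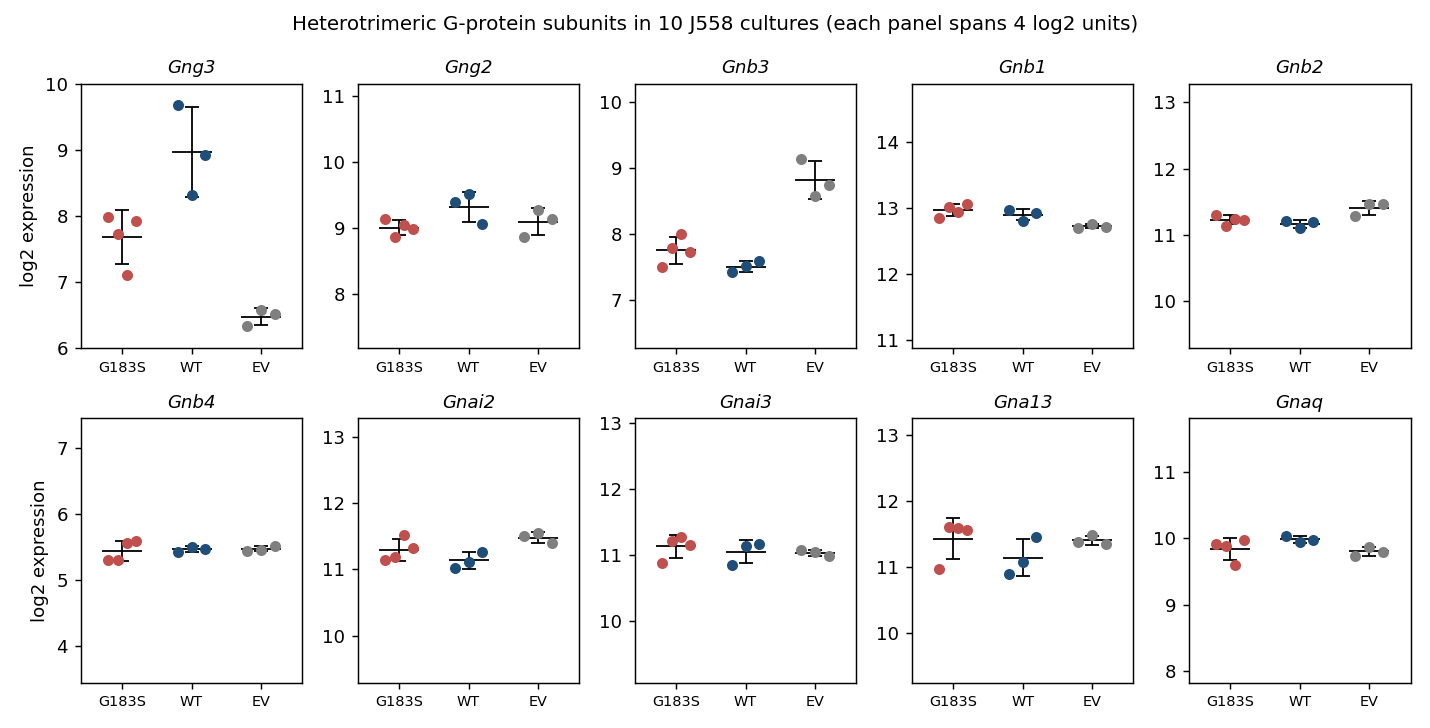
Log2 expression of the 10 subunit genes, 1 point per array, in G183S (n = 4), wild-type Pax5 (WT, n = 3) and empty-vector (EV, n = 3) cultures; black bars are the group mean and SD, and each panel spans the same number of log2 units. Gng3 separates all 3 groups, Gnb3 lies at 7.42 to 8.0 with either Pax5 vector and at 8.58 to 9.13 with empty vector, and the other 8 genes lie close together.

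In the RefSeq gene table of mouse build GRCm38.p6, Gng3 overlaps Bscl2, which encodes seipin, an endoplasmic reticulum protein of lipid droplet formation. The table gives 3 start sites for Bscl2, and 1 of them faces away from the Gng3 start across a gap of 81 bases. That gap is shown because both genes start at its edges and both were higher with wild-type Pax5. It lies at chr19:8839247-8839327 (RefSeq, GRCm38.p6, minus strand, the strand of Gng3), between the genes' first bases, and capitals mark its only CG dinucleotide.
Gng3 to Bscl2 gap: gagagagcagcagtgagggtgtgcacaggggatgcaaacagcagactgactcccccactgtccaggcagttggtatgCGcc
The letters GCGTGAC, a core of sites bound by the Pax5 paired domain, were searched on both strands in the 250 bases before each start. They occur in 1.78% of 32851 such promoter windows, in 1 of the 7 members listed in the promoter table (Gna13), and not in the window of Gng3. Gnb3, Gnb4 and Gnai2 had no window there and were not searched. A match or its absence describes these letters only.

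Bscl2 read 11.72, 11.58, 11.64 and 11.73 log2 units with G183S, 12.24, 11.68 and 12.15 with wild type, and 11.46, 11.25 and 11.39 with empty vector. It rose with wild type against empty vector by 0.66 ± 0.13 SE (limma adjusted p = 0.0423), and its difference with G183S was 0.30 ± 0.12 SE (adjusted p = 0.386). The wild-type call on Bscl2 was lost on leaving out any 1 array other than wild-type replicate 2 or G183S replicate 1, with limma adjusted p of 0.0511 to 0.179. It was also lost with each array centred on its median (adjusted p = 0.0535), with all probe sets fitted (0.0742) and with only the 2 groups compared (0.0700). In a linear model without moderation Bscl2 had an adjusted p of 0.137. Whether the 2 probe sets share signal where the genes overlap was not tested. The other near genes of Gng3 did not pass in either comparison with empty vector: Ttc9c differed by 0.26 and 0.10, Hnrnpul2 by 0.01 and -0.02, and Lrrn4cl by -0.49 and 0.14 with wild type and with G183S.

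Because Gng3 is known as a neuronal gene, 8 neuron markers were examined beside it. Of these, 6 were dim in every array, among them Rbfox3 and Snap25, which define mature neurons and synapses. The mean over the 8 markers was 6.37 to 6.49 log2 units in G183S arrays, 6.59 to 6.67 in wild-type arrays and 6.29 to 6.38 in empty-vector arrays. The 1 marker that rose was Map2, a microtubule-associated protein gene, with 8.76, 8.39, 7.51 and 7.96 with G183S, 9.68, 9.04 and 8.85 with wild type, and 7.18, 7.15 and 7.24 with empty vector. Its log2 fold change was 2.0 ± 0.30 SE with wild type (limma adjusted p = 0.0170) and 0.96 ± 0.28 SE with G183S (adjusted p = 0.173), both against empty vector. The wild-type call on Map2 was lost without any 1 of the empty-vector arrays (limma adjusted p = 0.0529, 0.0922 and 0.0878 for replicates 1, 2 and 3). It was also lost in a linear model without moderation (adjusted p = 0.0872). Like Gng3, Map2 had 3 groups that did not overlap. The same order held for Smagp, Tfb2m and Zdhhc21, which are named below and are not among the 8 markers.

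Across the 10 arrays the genes most like Gng3 by Pearson's r were Cpm (0.989), Smagp (0.971), Tfb2m (0.966), Zdhhc21 (0.964) and Cenpv (0.962). These r values describe 10 arrays that share the same 3 groups, so any gene that differs between groups in the same order scores high, and no p is given. Cpm, which encodes the membrane enzyme carboxypeptidase M, read 6.71, 6.40, 5.96 and 6.89 log2 units with G183S, 8.60, 6.8 and 7.81 with wild type, and 5.41, 5.53 and 5.41 with empty vector. In Gng3 and in Cpm alike, wild-type replicate 1 was the highest array of all and G183S replicate 3 the lowest with a Pax5 vector. Pax5 itself was also highest in wild-type replicate 1 (10.67) and lowest with a Pax5 vector in G183S replicate 3 (9.38). The order differed elsewhere. G183S replicates 1 and 2 had more Pax5 (10.22 and 10.36) than wild-type replicates 2 and 3 (10.09 and 10.05). Their Gng3 was lower, at 7.98 and 7.72 beside 8.31 and 8.92. A relation of Gng3 to the Pax5 level within a group was not tested.

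**Figure D2:**
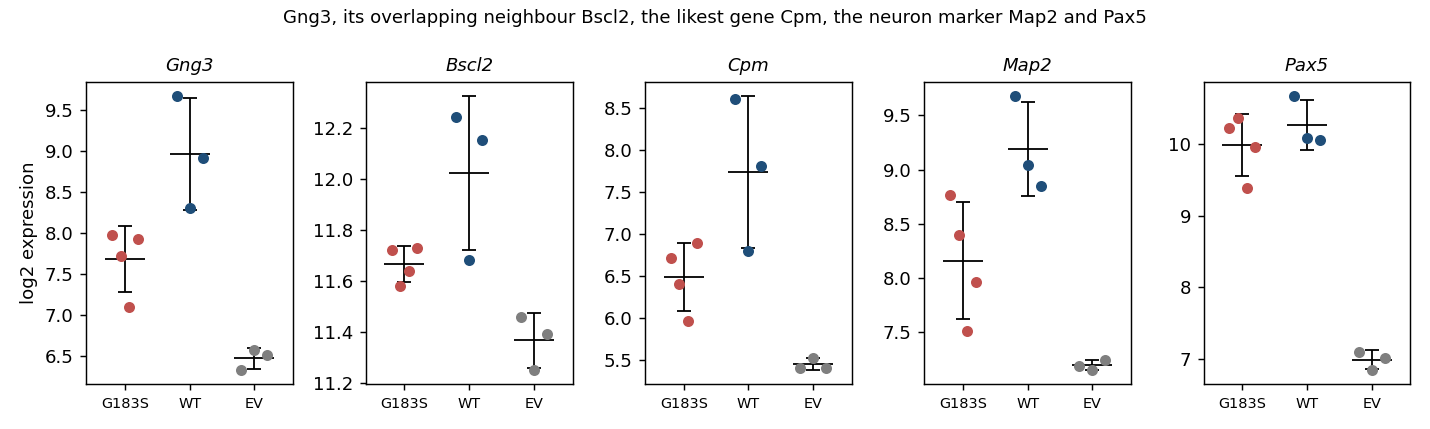
Log2 expression of Gng3, its overlapping neighbour Bscl2, the most similar gene Cpm, the neuron marker Map2 and Pax5, 1 point per array, with group mean and SD (G183S n = 4, WT n = 3, EV n = 3); vertical scales differ between panels. Gng3 and Map2 separate the 3 groups, while Pax5 overlaps between G183S and WT.

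Gng2, the other gamma subunit described and one widely expressed in blood cells, read 9.14, 8.86, 9.04 and 8.99 log2 units with G183S, 9.39, 9.51 and 9.06 with wild type, and 8.87, 9.27 and 9.14 with empty vector. Its groups overlapped in all 3 comparisons. The log2 difference was 0.23 ± 0.13 SE with wild type against empty vector (limma adjusted p = 0.452) and -0.32 ± 0.13 SE for G183S against wild type (adjusted p = 0.508).

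Gnb3, a beta subunit gene known best from cone photoreceptors and taste cells, was lower with either Pax5 vector. It read 7.50, 7.79, 8.0 and 7.73 log2 units with G183S, 7.42, 7.51 and 7.59 with wild type, and 9.13, 8.58 and 8.74 with empty vector. All 7 arrays with a Pax5 vector lay below all 3 empty-vector arrays, and no array was dim. The log2 fold change was -1.31 ± 0.15 SE with wild type and -1.06 ± 0.14 SE with G183S, both against empty vector, so the level was 2.48-fold and 2.09-fold lower. These values chose the gene and are given without a test.

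Between the 2 Pax5 proteins Gnb3 did not separate. It averaged 7.75 ± 0.21 log2 units with G183S (SD, n = 4) and 7.51 ± 0.09 with wild type (SD, n = 3), a difference of 0.25 ± 0.14 SE, and the highest wild-type array lay above the lowest G183S array. Of 8 cone photoreceptor markers, 7 were dim in every array, among them Opn1sw, Opn1mw and Arr3, which define cones. None passed limma's threshold in any comparison (unadjusted p under 0.05 for 1 of 8 with wild type, 0 with G183S, both against empty vector, and 0 for G183S against wild type). The genes beside Gnb3 did not pass against empty vector either: Usp5 differed by -0.29 and -0.37, Cdca3 by 0.31 and -0.30, and P3h3 by -0.37 and -0.30 with wild type and with G183S.

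The genes most like Gnb3 across the 10 arrays by Pearson's r were Srcin1 (0.973), Mxi1 (0.958), Ltbp3 (0.953), Cd3g (0.953) and Hif3a (0.950). Mxi1, a repressor in the Myc and Max network, read 9.30, 9.18, 9.41 and 9.37 log2 units with G183S, 9.14, 9.19 and 9.22 with wild type, and 9.80, 9.71 and 9.74 with empty vector. Cd3g, a chain of the T-cell receptor complex, was dim in all 10 arrays, at 4.87 to 5.26 with G183S, 4.90 to 5.25 with wild type and 5.93 to 6.54 with empty vector. Of 4 T-cell markers measured, Cd3d, Cd3e and Cd8a were dim in every array, and the mean over all 4 was 6.11 to 6.30 with G183S, 6.18 to 6.29 with wild type and 6.35 to 6.86 with empty vector. The exception was Cd4, at 6.40 to 6.77 with G183S, 6.37 to 6.74 with wild type and 7.09, 9.29 and 7.60 with empty vector, which did not pass (limma adjusted p = 0.181 with G183S and 0.15 with wild type). Their part in the values of Gnb3 and Cd3g was not tested. As for Gng3, these r values describe arrays of the same 3 groups.

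None of the other beta subunit genes passed in any comparison. Gnb1, whose product is the common beta subunit of most tissues, read 12.85, 13.01, 12.94 and 13.06 log2 units with G183S, 12.97, 12.80 and 12.93 with wild type, and 12.70, 12.76 and 12.71 with empty vector. Every array with a Pax5 vector lay above every empty-vector array, but the log2 differences were small, 0.25 ± 0.07 SE with G183S (limma adjusted p = 0.162) and 0.18 ± 0.07 SE with wild type (adjusted p = 0.265). Gnb2 lay the other way. It read 11.30, 11.13, 11.24 and 11.23 with G183S, 11.21, 11.10 and 11.19 with wild type and 11.29, 11.47 and 11.46 with empty vector, a log2 difference of -0.24 ± 0.07 SE for wild type against empty vector (limma adjusted p = 0.141). Gnb4 was dim in all 10 arrays, at 5.31 to 5.59 in G183S, 5.43 to 5.51 in wild-type and 5.45 to 5.52 in empty-vector arrays, and no difference could be read from it.

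Among the alpha subunits, Gnai2, the main inhibitory alpha subunit of lymphocytes, which lowers cyclic AMP and carries chemokine signals, had the largest difference of these 4 genes in either comparison with empty vector. It read 11.15, 11.19, 11.52 and 11.32 log2 units with G183S, 11.02, 11.12 and 11.27 with wild type, and 11.50, 11.55 and 11.40 with empty vector. Wild-type arrays lay below empty-vector arrays, with a log2 difference of -0.35 ± 0.11 SE that did not pass (limma adjusted p = 0.134), while G183S arrays overlapped with both other groups. Gnai3, a second inhibitory alpha subunit, ranged from 10.88 to 11.28 with G183S, from 10.86 to 11.17 with wild type and from 10.99 to 11.08 with empty vector, and its groups overlapped throughout.

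Gna13, the alpha subunit of the G12 family named above, read 10.96, 11.60, 11.59 and 11.55 log2 units with G183S, 10.89, 11.08 and 11.45 with wild type, and 11.38, 11.48 and 11.35 with empty vector. G183S replicate 1 stood low in its group, near wild-type replicates 1 and 2. The difference from empty vector was -0.26 ± 0.18 SE with wild type (limma adjusted p = 0.537) and 0.02 ± 0.17 SE with G183S (adjusted p = 0.986). Gnaq, the activator of phospholipase C beta, ranged from 9.59 to 9.97 with G183S, from 9.94 to 10.04 with wild type and from 9.74 to 9.87 with empty vector. Its wild-type arrays lay above its empty-vector arrays by 0.18 ± 0.10 SE (limma adjusted p = 0.402).

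Counted together, 2 of the 10 members passed limma's adjusted threshold of 0.05 with wild type against empty vector, the 2 chosen for it, and 1.88% of all genes did. With G183S against empty vector 1 of 10 passed, Gnb3, against 0.311% of all genes, and nothing is read from these counts. Without empty-vector replicate 3 both counts were 0, without empty-vector replicate 2 the first was 1, and without G183S replicate 2 or 4 the second was 0. Of the 8 others 0 passed with limma in any comparison, and 0 passed in a linear model without moderation. By unadjusted p under 0.05 they numbered 3 of 8 with wild type, 2 with G183S, both against empty vector, and 1 for G183S against wild type, where 15.9%, 11.3% and 9.48% of all genes did so. Groups did not overlap in 4 of 8 with wild type (24.0% of all genes), 1 of 8 with G183S (11.6%) and 0 of 8 between G183S and wild type (6.50%). When arrays were weighted by their fit (the weight of G183S replicate 1 was 0.335), Gnb2 (-0.31, limma adjusted p = 0.0114) and Gnai2 (-0.34, 0.0190) passed with wild type, Gnb1 (0.28, 0.0204) with G183S, and Gng2 (-0.49, 0.0204) and Gna13 (0.42, 0.0297) between G183S and wild type. That weighted fit called 2576, 1449 and 2752 of all 19937 genes in these 3 comparisons, far more than without weights, and nothing is read from its calls on the 8. Without weights, all log2 differences of the 8 lay between -0.35 and 0.29. Their median was 0.01 with wild type and 0.00 with G183S against empty vector, the same as over all genes. Between G183S and wild type it was 0.06, beside -0.02 over all genes.

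**Figure D3:**
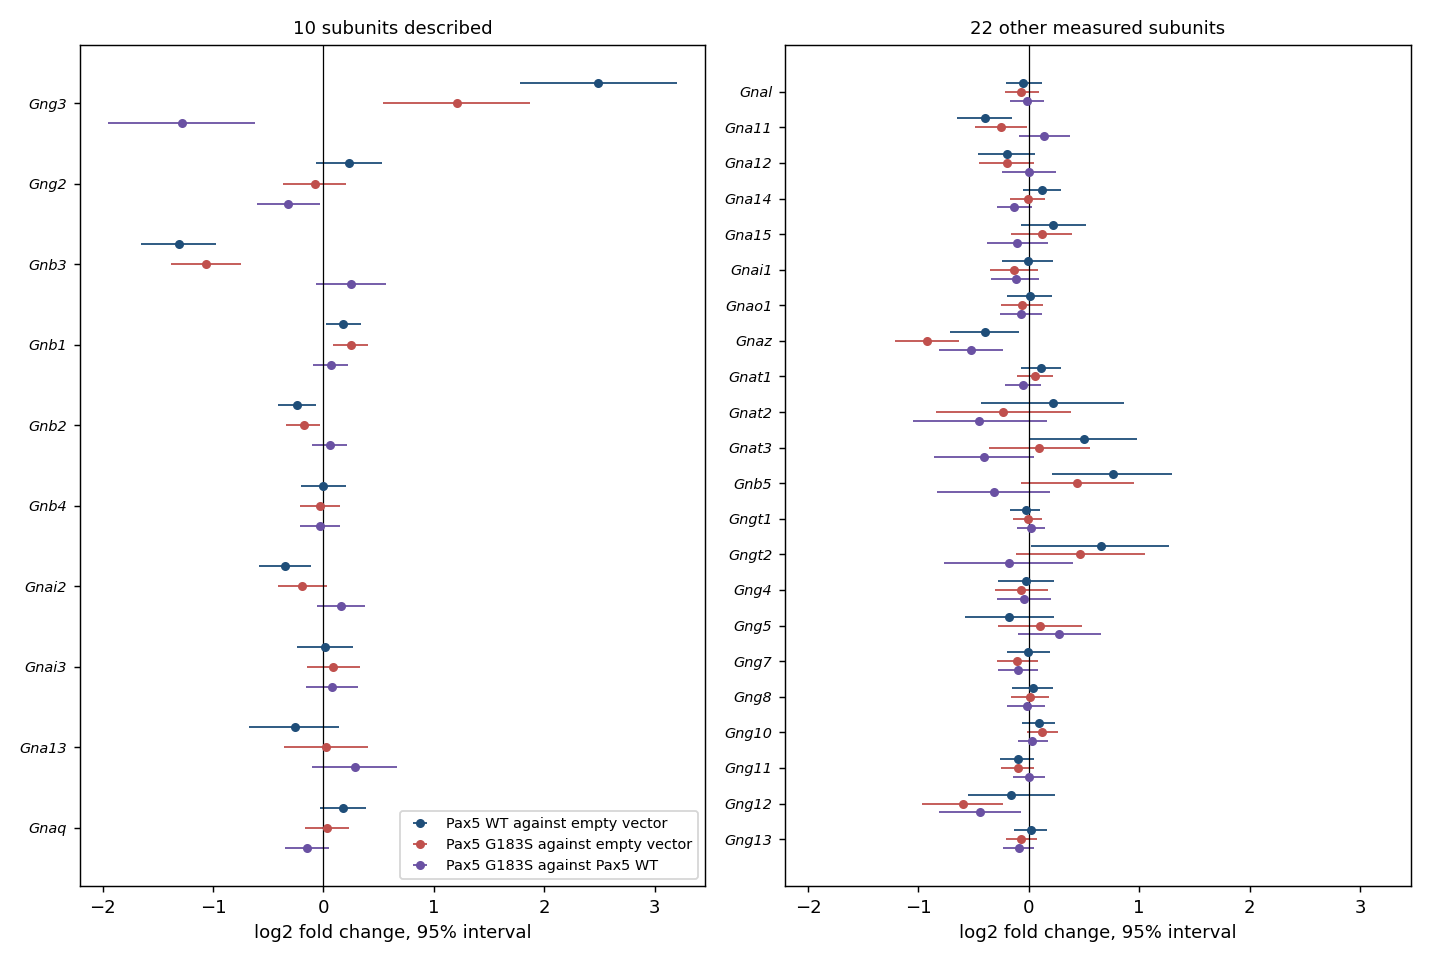
Log2 fold changes with 95% intervals from the limma fit for the 10 subunits described (left) and the 22 other measured subunits (right) in 3 comparisons; Gng3 and Gnb3 were chosen for their differences from empty vector. Gng3 lies at 2.49 and Gnb3 at -1.31 for wild type against empty vector, and Gnaz lies at -0.92 for G183S against empty vector.

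The 22 other subunits are a list made from the gene family. With wild type against empty vector limma called 0 of 22 (1.88% of all genes), with 5 of 22 at an unadjusted p under 0.05 (15.9% of all genes), 5 of 22 with groups that did not overlap (24.0%) and 0 called without moderation. Their median log2 fold change was 0.00, beside 0.01 over all genes. With G183S against empty vector 0 of 22 were higher and 1 was lower (0.100% and 0.211% of all genes), with a median of -0.06 beside 0.00. By unadjusted p under 0.05 these were 3 of 22 (11.3% of all genes), and in 8 of 22 the groups did not overlap (11.6%). Between G183S and wild type limma called 0 of 22, with 2 at an unadjusted p under 0.05 (9.48% of all genes), 0 called without moderation and a median of -0.08 beside -0.02. In 1 of 22 these 2 groups did not overlap (6.50% of all genes). Gnas, the stimulatory alpha subunit, shares its probe set with an antisense gene and was not analysed here. With array weights 5, 2 and 3 of the 22 passed in these 3 comparisons, where 2576, 1449 and 2752 of all 19937 genes did.

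The subunit that fell was Gnaz, an alpha subunit of the inhibitory class known from brain and platelets. It read 7.64, 7.15, 7.47 and 7.32 log2 units with G183S, 8.11, 7.94 and 7.69 with wild type, and 8.19, 8.35 and 8.41 with empty vector. The 3 groups did not overlap, here with G183S lowest and wild type in between. The share of all genes with this order was not counted, so nothing is read from it. The log2 fold change was -0.92 ± 0.13 SE with G183S against empty vector (limma adjusted p = 0.0220), -0.40 ± 0.14 SE with wild type (adjusted p = 0.186) and -0.52 ± 0.13 SE between G183S and wild type (adjusted p = 0.484). The G183S call on Gnaz was lost without empty-vector replicate 2 (limma adjusted p = 0.144) or 3 (0.171) and without G183S replicate 2 (0.0658) or 4 (0.0726), while the difference stayed between -1.0 and -0.84 whichever array was left out. Between G183S and wild type it passed without G183S replicate 1 (-0.60, limma adjusted p = 0.0278).

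The subunit genes with the highest values otherwise did not pass. Gnb5, a divergent beta subunit that pairs with RGS proteins of the R7 group, read 9.34, 8.81, 8.73 and 8.80 with G183S, 9.86, 8.99 and 8.86 with wild type, and 8.54, 8.48 and 8.42 with empty vector. Replicate 1 was the highest array in both Pax5 groups. The log2 difference was 0.76 ± 0.24 SE with wild type (limma adjusted p = 0.158), and 0.44 without wild-type replicate 1. Gngt2, the cone gamma subunit, was dim in all 10 arrays, with a difference of 0.46 ± 0.26 SE for G183S against empty vector (limma adjusted p = 0.588). Gng5, a widely expressed gamma subunit, had the highest value between G183S and wild type, 0.27 ± 0.17 SE (limma adjusted p = 0.599).

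Genes that act around the G protein were counted in 7 lists of 85 genes, of which 82 were measured. With wild type against empty vector 2 of 82 passed (1.88% of all genes), with G183S against empty vector 1 of 82 (0.311%), and between G183S and wild type 0 of 82 (0%). All of the genes that passed were RGS genes. Among 18 measured RGS genes 0 were higher and 2 lower with wild type (0.883% and 0.993% of all genes), and 1 was higher and 0 lower with G183S, with medians of -0.02 and -0.07 beside 0.01 and 0.00 over all genes. A linear model without moderation called 0 of the 18 in either comparison with empty vector.

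Rgs14, which binds Gi alpha subunits and small GTPases of the Ras family, fell with wild type. It read 8.36, 8.26, 8.72 and 8.54 log2 units with G183S, 8.25, 8.48 and 8.47 with wild type, and 8.96, 9.14 and 9.10 with empty vector. All arrays with a Pax5 vector lay below those with empty vector. The log2 fold change with wild type was -0.67 ± 0.12 SE (limma adjusted p = 0.0306). With G183S it was -0.60 ± 0.11 SE and did not pass (limma adjusted p = 0.0692). The wild-type call on Rgs14 was lost without any 1 of the empty-vector or wild-type arrays or G183S replicate 4 (limma adjusted p of 0.0508 to 0.140) and with all probe sets fitted (0.0556). It was also lost in a linear model without moderation (adjusted p = 0.110). Rgs3, which accelerates GTP hydrolysis by Gi and Gq subunits, read 7.91, 7.26, 8.17 and 7.38 with G183S, 7.33, 7.66 and 7.43 with wild type, and 8.60, 8.46 and 8.63 with empty vector. It fell with wild type, by a log2 fold change of -1.09 ± 0.21 SE (limma adjusted p = 0.0384), and differed by -0.88 ± 0.20 SE with G183S (adjusted p = 0.0981). That was 1 of 2 Rgs3 probe sets, and the other, which is dimmer, differed by 0.03. The Rgs3 call was lost without any 1 empty-vector or wild-type array (limma adjusted p of 0.0668 to 0.142), and with the mean of both probe sets the difference was -0.53 (0.0728). It was also lost with all probe sets fitted (limma adjusted p = 0.0684) and in a linear model without moderation (adjusted p = 0.141).

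Rgs1, which restrains the migration of B cells toward chemokines, rose with G183S. It read 6.76, 5.90, 6.98 and 6.46 log2 units with G183S, 5.48, 5.56 and 5.85 with wild type, and 5.43, 5.08 and 5.07 with empty vector. All G183S arrays lay above all others, and the probe set was dim throughout. The log2 fold change was 1.33 ± 0.22 SE with G183S against empty vector (limma adjusted p = 0.0486) and 0.90 ± 0.22 SE between G183S and wild type (adjusted p = 0.484). Against empty vector the Rgs1 call was lost without any 1 empty-vector array (limma adjusted p = 0.0617, 0.241 and 0.297 for replicates 1, 2 and 3), without wild-type replicate 2 (0.0731) or 3 (0.0567) or G183S replicate 4 (0.119), with all probe sets fitted (0.0780), with only the 2 groups compared (0.0663) and with trend and robust moderation (0.0528). A linear model without moderation lost it too (adjusted p = 0.188).

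In the other 6 lists limma called 0 genes in all 3 comparisons, as did the linear model without moderation. The fit with array weights called 0 to 4 genes per list and comparison, where it called 2576, 1449 and 2752 of all 19937 genes. Of 16 effectors other than adenylyl cyclases, 1, 5 and 3 had an unadjusted p under 0.05 with wild type, with G183S, both against empty vector, and between G183S and wild type, where 15.9%, 11.3% and 9.48% of all genes did so. For 10 adenylyl cyclases these counts were 2, 0 and 3, for 8 chaperones and modulators of the subunits 0, 0 and 3, for 5 genes of gamma subunit prenylation 2, 2 and 2, and for 7 receptor kinases and arrestins 0, 1 and 0. The gene closest to the threshold was Fnta, a subunit of the enzymes that attach lipid to gamma subunits, at -0.59 with wild type (limma adjusted p = 0.0678), which passed without G183S replicate 1 (0.0132) and with only the 2 groups compared (0.0409). With wild type against empty vector, 1 adenylyl cyclase passed with 2 groups per fit, with the replicate block and without G183S replicate 4. Those fits called 587, 228 and 214 of all genes. Without wild-type replicate 3, 1 receptor of the B lineage passed, beside 269 of all genes. Between G183S and wild type, leaving out G183S replicate 1 called 1113 of all genes. Among them were 2 cyclases, 2 chaperones or modulators, 1 receptor kinase or arrestin and 1 other effector.

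Of 18 measured receptors of the B lineage, 4, 2 and 2 had an unadjusted p under 0.05 in the same 3 comparisons (15.9%, 11.3% and 9.48% of all genes), and their median was 0.06, 0.04 and -0.05. The largest difference with G183S was that of Ccr7, a chemokine receptor that guides lymphocytes to lymphoid tissue, at 9.26, 9.87, 9.07 and 9.44 log2 units with G183S, 8.02, 8.84 and 9.98 with wild type, and 7.66, 7.99 and 7.72 with empty vector. G183S arrays lay above empty-vector arrays by 1.62 log2 units (limma adjusted p = 0.103). The Ccr7 difference passed without wild-type replicate 1 (limma adjusted p = 0.0439) or 3 (0.0310) and with only the 2 groups compared (0.0180).

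**Figure D4:**
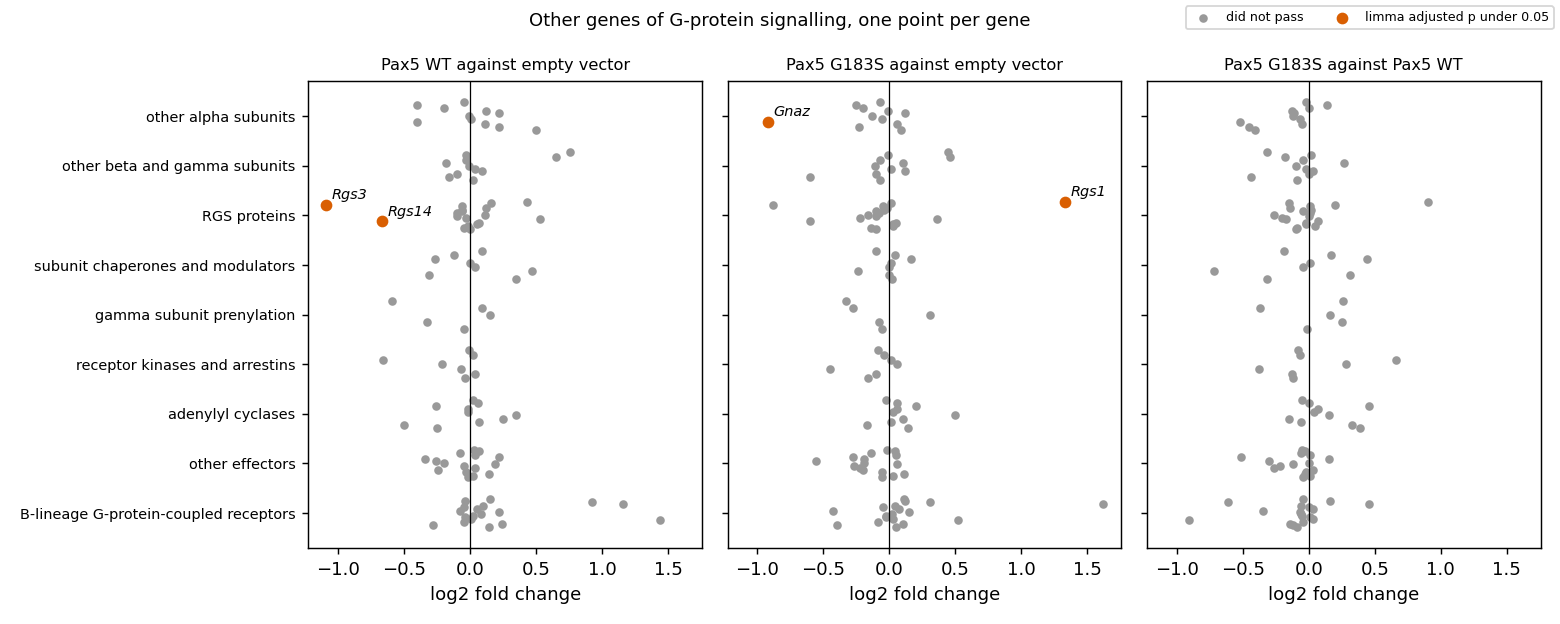
Log2 fold changes of the other subunits and of 7 further lists of G-protein signalling genes, 1 point per gene, in 3 comparisons; orange points had a limma adjusted p under 0.05. Gnaz and 3 RGS genes are the only orange points.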

How the data were processed

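The authors deposited 1 table of log2 expression values per probe set for 10 arrays. The submitters' processing notes list RMA and Partek and give neither a version nor a role. Which arrays were normalized together, any filter and the genome build are not stated in the labels. RMA commonly brings arrays close to the same distribution, and a change in most genes at once would then be hidden. The array medians of the deposited values still ran from 6.81 to 6.94 log2 units. Scan dates were not used, and no scan batch was tested.

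Of 34760 probe sets, 21640 had 1 gene symbol in the platform annotation. The one with the highest mean per gene left 19937 genes, whose names were checked in RefSeq's GRCm38.p6 gene table. Groups and replicate numbers came from the sample titles, which call the replicates biological. Groups were compared with limma 3.58.1 (R 4.3.3), with a coefficient for each group over all 10 arrays, moderation by empirical Bayes, two-sided tests and Benjamini-Hochberg adjustment over all 19937 genes at 0.05. The number of arrays limits the precision. Figures used matplotlib 3.10.9.

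The members and lists were chosen with earlier results of these data known. Named genes are the 10 members, the subunits that passed or had the highest or lowest value, up to 4 passing genes per further list, the 5 genes most like Gng3 and Gnb3 by Pearson's r, their 2 nearest genes on each side, and Pax5. Fnta, Ccr7, Map2, Cd4 and single markers were added after their values were seen. Alternatives were array centring, a filter on dim genes, no moderation, trend and robust moderation, array weights, 2 groups per fit, the replicate number as a block, the mean over probe sets, all probe sets, and leaving out each array.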

Additional observations from a re-analysis of the deposited data

Results flagged for a closer look

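In 39 named genes the 4 G183S arrays were examined for 1 array far from the other 3, and 4 genes had one. Chance gives about 1 in 20 for a single gene. These genes do not vary independently and some were named for their likeness to another, so that rate cannot judge the count. For Gna13 that array was G183S replicate 1, at 10.96 log2 units where the other 3 lay between 11.55 and 11.60. Gnb5 was likewise apart in G183S replicate 1, with 9.34 beside 8.73 to 8.81. Smagp and Cenpv, named for their likeness to Gng3, stood low in G183S replicate 3, with 9.51 beside 9.87 to 9.90 for Smagp and 10.44 beside 10.80 to 10.83 for Cenpv. Gng3 was itself lowest of the G183S arrays there (7.10), so these 2 genes are not separate observations. Groups of 3 arrays were not examined.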

How the results depend on the processing

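Over all genes limma called 374 with wild type and 62 with G183S, both against empty vector, and 0 between G183S and wild type. With array weights these counts were 2576, 1449 and 2752, without moderation 4, 6 and 1, and with all probe sets fitted 151, 37 and 0, while fitting 2 groups at a time gave 587 with wild type. Leaving out 1 array gave 6 to 1033, 8 to 295 and 0 to 1113. Of the 10 members, 2 passed with wild type, 4 with array weights, 0 without moderation and 0 to 2 on leaving out 1 array (1 without empty-vector replicate 2, 0 without empty-vector replicate 3). With G183S 1 passed, 3 with array weights, 0 without moderation and 0 to 1 on leaving out 1 array (0 without empty-vector replicate 3 or G183S replicate 2 or 4). Between G183S and wild type 0 passed, 3 with array weights and 0 to 1 on leaving out 1 array (1 without G183S replicate 1, where 1113 of all genes passed). That 1 gene was Gng3, which is also among the 3. Levels in the same arrays served to choose Gng3, so nothing is read from these calls. Of the 22 other subunits, 5, 2 and 3 passed with array weights in the 3 comparisons, Gnaz was not called without moderation (adjusted p = 0.115 in a linear model fitted gene by gene), and leaving out 1 array gave 0, 0 to 1 and 0 to 2 (2 without G183S replicate 1). The cause of these changes was not tested.

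Same-numbered arrays had deviations from their group means that correlated between -0.162 and 0.507 across genes. Between wild type and G183S, replicates 1 and 3 correlated best with their own number (0.507 and 0.455), while replicate 2 did not (-0.162). Since not every array correlated best with its own number, the numbers were not taken to pair the arrays. With the replicate block limma called 228, 10 and 2 genes over all genes, and 2, 0 and 0 of the members. Gnaz and Rgs1 were then not called with G183S (limma adjusted p = 0.124 each), which left 0 of the other subunits, and Rgs3 was not called with wild type (0.0613). Gnb3 was not called with G183S either, but it was chosen for this difference and nothing is read from that. The block also put Gna13 at -0.02 and Gnaq at -0.01 with G183S against empty vector.

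Differences near 0 changed sign. With each array centred on its median, Gnai3 was -0.02 and Hnrnpul2 -0.03 with wild type, and Gna13 -0.01 and Gnaq 0.00 with G183S. With array weights Gnb4 was 0.01 and Hnrnpul2 -0.01 with wild type. Leaving out 1 array gave, with wild type against empty vector, Gnb4 -0.02 to 0.02, Gnai3 -0.04 to 0.11 and Hnrnpul2 -0.01 to 0.02. With G183S against empty vector it gave Gng2 -0.20 to 0.00, Gnb4 -0.08 to 0.01, Gna13 -0.04 to 0.18, Gnaq -0.01 to 0.11 and Hnrnpul2 -0.04 to 0.00. Between G183S and wild type it gave Gnb4 -0.08 to 0.02 and Gnai3 -0.02 to 0.16.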

Other observations

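Chosen after the values were seen, Gnat2 and Gng5 are given here because replicate 1 lay apart from the other G183S arrays. In the wild-type arrays replicate 1 lay on the same side, at the end of the range. Gna13 and Gnb5, given above, had the same pattern, and how many other subunits did was not counted. Gnat2, a cone alpha subunit gene that was not dim in these cells, was at 9.72 log2 units in replicate 1 of G183S while replicates 2 to 4 lay between 8.63 and 8.67. Among the wild-type arrays it was at 9.76 in replicate 1, 9.40 in replicate 2 and 8.93 in replicate 3, and with empty vector it lay between 9.11 and 9.21. Gng5 lay the other way, at 9.98 in replicate 1 of G183S beside 10.43 to 10.63 in replicates 2 to 4, and at 9.76 in replicate 1 of wild type beside 10.11 and 10.42. Deviations from the group mean, taken across all genes, had a Pearson's r of 0.507 between G183S replicate 1 and wild-type replicate 1 and of -0.581 between G183S replicate 1 and wild-type replicate 3; genes are not independent replicates.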
